A study of Mus musculus with 8 samples.

Results

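The Ets family transcription factors Ehf, Elf3, Elf5, Elf1, Elf4, Ets1, Ets2, Etv3, Etv6 and Gabpa were followed in RNA-seq of mouse medullary thymic epithelial cells (mTECs). These 10 genes were taken by name from the count table, after its Ensembl identifiers had been matched to GENCODE gene symbols, and they are 10 of 25466 genes in that table. All 10 passed the filter on low counts. The libraries came from thymi of wild-type BL6N6 mice aged 4 to 6 weeks. Cells negative for CD45 and CDR1 and positive for Epcam were sorted by flow cytometry on Tspan8, a cell surface protein that stands for a tissue-restricted antigen, and on MHCII. The sort gave the 4 subsets Tspan8negMHCIIlo, Tspan8negMHCIIhi, Tspan8posMHCIIhi and Tspan8posMHCIIlo, with 2 biological replicates each, and n is 2 for every subset value below. No allele or treatment other than the wild-type genotype is listed for any of them. Whether animals were pooled for a library was not stated, and MHCIIlo gates hold both immature and late mTECs, so a level is a mean over a mixed population.

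Ets factors share a DNA-binding domain, the ETS domain, which reads a short core with the letters GGAA. The subfamilies differ in the bases they prefer around the core, in their partners and in whether they activate or repress. The epithelial ESE subfamily (Ehf, Elf3 and Elf5) is known from glandular and barrier epithelia, whereas Ets1 and Fli1 are prominent in lymphocytes and endothelium and Gabpa is used by most cells. Medullary thymic epithelium expresses genes of many peripheral tissues, which exposes developing T cells to self-antigens, and its cells mature from MHCIIlo through an Aire-expressing MHCIIhi stage to late, keratinocyte-like and tuft cell-like forms.

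Total counts ranged from 1941518 to 7783841 per library, with the smallest and the largest both in Tspan8posMHCIIlo, and 18173 to 23570 genes had a count. Levels are given as CPM, the count of a gene relative to the library's total count, with library sizes scaled by the TMM method. The sorted markers followed the labels. Tspan8 lay between 3.65 and 14.6 CPM in the Tspan8neg libraries and between 347 and 404 in the Tspan8pos libraries, and H2-Ab1, an MHCII gene, was higher in the MHCIIhi libraries of each Tspan8 level. Epcam was at 367 CPM or more in every library. Replicate 2 of Tspan8negMHCIIlo stood apart in markers of thymocytes, the developing T cells of the thymus. Their 10 genes summed to 1446 CPM there, to 517 in replicate 1 and to between 76.3 and 241 in the other 6 libraries, and none of the 10 was at 0 in any library. Without that library, the calls of Ehf, Elf3, Elf5 and Etv3 against this subset given below held, and Ets1, Ets2 and Fli1 are described with and without it.

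Differences between subsets were tested with the quasi-likelihood test of edgeR in 1 fit of all 8 libraries. The subsets share its estimate of the spread. The replicates differed most in Tspan8negMHCIIlo, with a chi-square per gene between replicates of 9.33, beside 3.34 to 5.24 in the other subsets. Standard errors and p-values against Tspan8negMHCIIlo may therefore be too small. A gene was called when the p-value, adjusted by the Benjamini-Hochberg method over 17006 genes, was under 0.01 and the log2 fold change was at least 1 in size. The error given with a log2 fold change is its standard error. Every adjusted p below is from that test. In bulk RNA a lower level can come from fewer cells that express a gene or from less RNA per cell, and these cannot be told apart here.

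Between Tspan8posMHCIIlo and Tspan8negMHCIIlo, 4 members were higher in the Tspan8pos cells (Ehf, Elf3, Elf5 and Etv3) and 1 was lower (Ets1). Among all genes tested, 12.1% were called higher and 9.34% lower. Between Tspan8posMHCIIhi and Tspan8negMHCIIhi, 3 members were higher (Ehf, Elf3 and Ets2) against 11.0% of all genes, and 0 were lower against 7.45%. Between the MHCII levels of Tspan8neg cells, 2 members were higher in MHCIIhi (Elf5 and Etv3, against 13.1% of all genes) and 1 was lower (Ets1, against 9.67%). In Tspan8pos cells 0 members were higher in MHCIIhi, where 4.59% of all genes were, and 1 was lower (Ehf, against 2.62%). Elf1, Elf4, Etv6 and Gabpa were called in none of these comparisons nor in the pairs of subsets that differ in both markers. The median log2 fold change of the 10 members was 0.50 for Tspan8 in MHCIIlo cells and 0.39 in MHCIIhi cells, beside −0.03 and −0.03 for all genes tested.

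**Figure D1:**
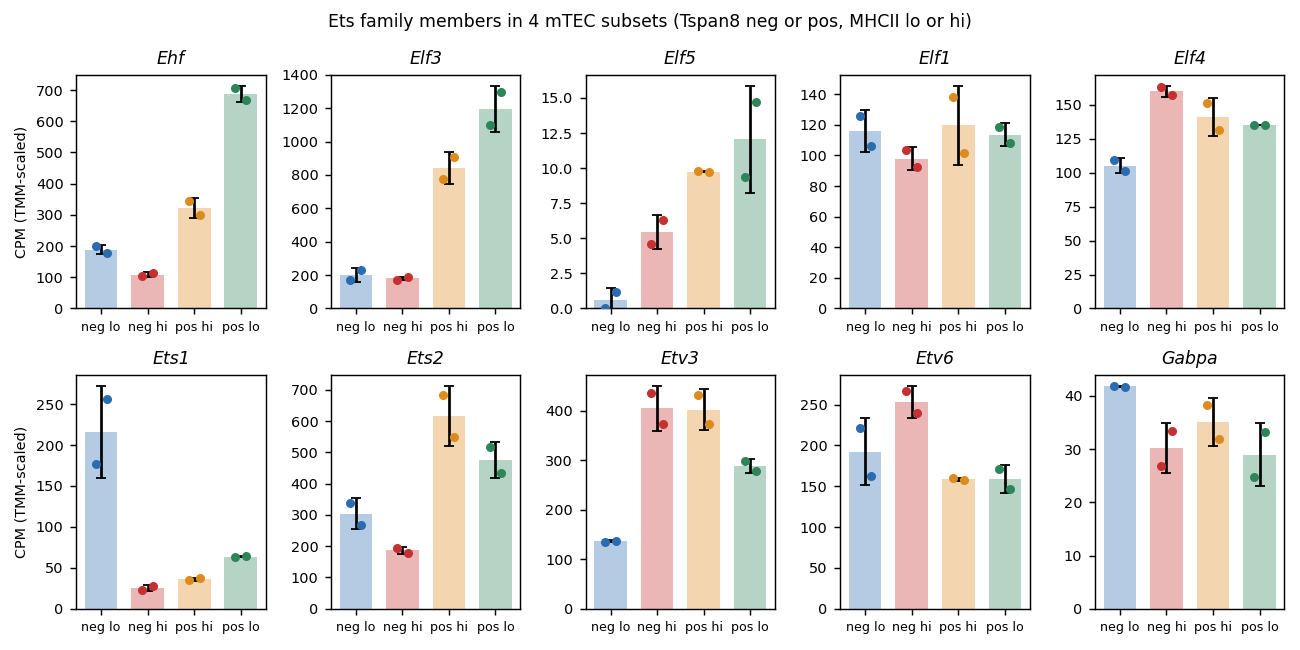
Levels of the 10 members in CPM (TMM-scaled, linear axis from 0, a scale of its own for each gene) in the subsets Tspan8negMHCIIlo (neg lo), Tspan8negMHCIIhi (neg hi), Tspan8posMHCIIhi (pos hi) and Tspan8posMHCIIlo (pos lo). Bars are means, error bars are SDs and points are the 2 libraries of a subset. Ehf and Elf3 are highest in both Tspan8pos subsets, Ets1 in Tspan8negMHCIIlo, Ets2 in the Tspan8pos subsets, and Etv3 is lowest in Tspan8negMHCIIlo.

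Elf3, an epithelial activator of barrier and secretory genes, lies on chromosome 1 (chr1:135253575-135258568, minus strand, GRCm38). It was at 173 and 232 CPM in the replicates of Tspan8negMHCIIlo and at 173 and 188 in those of Tspan8negMHCIIhi. In Tspan8posMHCIIhi it was at 775 and 908 CPM, and in Tspan8posMHCIIlo at 1097 and 1294. The 4 Tspan8pos libraries thus all lay above the 4 Tspan8neg libraries. The log2 fold change for Tspan8 was 2.56 ± 0.17 in MHCIIlo cells (adjusted p = 9.52e-07) and 2.22 ± 0.17 in MHCIIhi cells (adjusted p = 2.70e-06). The MHCII level made no called difference. In Tspan8neg cells the replicates overlapped (log2 fold change −0.17 ± 0.16, adjusted p = 0.441), and in Tspan8pos cells MHCIIhi was at −0.51 ± 0.16 relative to MHCIIlo (adjusted p = 0.0532). Gm26642 overlaps Elf3 on the opposite strand, and since it is unsettled whether the counting used strand, reads of the pair cannot be told apart.

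Ehf, a repressor and activator of epithelial differentiation genes, lies on chromosome 2 (chr2:103263433-103303278, minus strand). Its level was 199 and 179 CPM in Tspan8negMHCIIlo and 103 and 114 in Tspan8negMHCIIhi. It was 346 and 298 CPM in Tspan8posMHCIIhi and 706 and 669 in Tspan8posMHCIIlo. No 2 subsets overlapped, so the order was Tspan8posMHCIIlo, Tspan8posMHCIIhi, Tspan8negMHCIIlo and Tspan8negMHCIIhi. For Tspan8 the log2 fold change was 1.86 ± 0.14 in MHCIIlo cells (adjusted p = 1.96e-06) and 1.57 ± 0.14 in MHCIIhi cells (adjusted p = 7.50e-06). Unlike Elf3, Ehf was called lower in MHCIIhi than in MHCIIlo among Tspan8pos cells, by a log2 fold change of −1.09 ± 0.13 (adjusted p = 0.000281). This call sat near the fold limit and was lost without replicate 2 of Tspan8posMHCIIhi, where the value was −0.99. In Tspan8neg cells the value was −0.80 ± 0.14 (adjusted p = 0.000807), inside the limit on p and under that on the fold. Whether the MHCII effect differs between Elf3 and Ehf was not tested.

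Elf5, known from the mammary gland and placenta, is the plus-strand neighbour of Ehf on chromosome 2 (chr2:103411688-103450989). The pair is divergent, with 108409 bases between the genes. It had few reads, with 0 and 5 counts in Tspan8negMHCIIlo, 22 and 49 in Tspan8negMHCIIhi, 49 and 48 in Tspan8posMHCIIhi and 17 and 108 in Tspan8posMHCIIlo. As levels these were 0 and 1.18 CPM, 4.58 and 6.28, 9.76 and 9.75, and 9.34 and 14.7. Every library outside Tspan8negMHCIIlo was above both libraries of that subset, whose mean of 2.5 counts is under the floor of 3 counts used here. Elf5 was called higher in Tspan8posMHCIIlo than in Tspan8negMHCIIlo (log2 fold change 4.25 ± 0.66, adjusted p = 0.000412), and the call was lost without replicate 2 of Tspan8posMHCIIlo (3.83, adjusted p = 0.0105). It was also called higher in Tspan8negMHCIIhi than in Tspan8negMHCIIlo (3.07 ± 0.69, adjusted p = 0.00448), a call lost without replicate 2 of Tspan8negMHCIIhi (2.89, adjusted p = 0.0293) and in a fit of those 4 libraries alone (3.14, adjusted p = 0.0216). With so few reads in the lower subset the fitted folds of Elf5 are not resolved sizes. Of the other neighbours in its order, Tspan8negMHCIIhi with Tspan8posMHCIIhi (0.82 ± 0.46, adjusted p = 0.179) was not called. Tspan8posMHCIIhi with Tspan8posMHCIIlo (adjusted p = 0.653) was not called either. Every Tspan8pos library nevertheless lay above every Tspan8neg library.

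Levels as reads per kilobase of merged exons at the same library scaling as CPM (RPKM) were 539 ± 62.9 (SD) for Elf3, 123 ± 4.73 for Ehf and 2.05 ± 0.65 for Elf5 in Tspan8posMHCIIlo. In Tspan8negMHCIIhi they were 81.4 ± 4.49, 19.4 ± 1.42 and 0.92 ± 0.21. The distance between Elf3 and Ehf depended on the length used. With the mean transcript length in place of merged exons they were at 792 and 424 RPKM in Tspan8posMHCIIlo and at 119 and 66.8 in Tspan8negMHCIIhi. Elf3 thus exceeded Ehf under both lengths in these subsets, and Elf5 was the lowest of the ESE factors in all 4 subsets.

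Marker genes of late mTEC forms were also higher in Tspan8pos cells, though not in the order of every ESE factor. Of 9 genes of keratinized cells (such as Ivl and Krt10), 9 were called higher in Tspan8pos than in Tspan8neg cells at either MHCII level, and their summed level was 217 to 513 CPM in the Tspan8neg libraries and 5098 to 6589 in the Tspan8pos libraries. Of 6 tuft cell genes (such as Dclk1 and Pou2f3), 5 were called higher in MHCIIlo and 6 in MHCIIhi cells. Their sum was 138 to 161 CPM in Tspan8negMHCIIhi, 1009.8 to 1356 in Tspan8negMHCIIlo, 967 to 1111 in Tspan8posMHCIIhi and 5875 to 6001 in Tspan8posMHCIIlo. All 6 tuft genes were also called lower in MHCIIhi than in MHCIIlo cells at either Tspan8 level. Their median log2 fold change was −3.18 in Tspan8neg and −2.60 in Tspan8pos cells. Ehf was called for MHCII in Tspan8pos cells only. Between Tspan8posMHCIIhi and Tspan8negMHCIIlo the tuft sums overlapped, with 1 tuft gene called higher and 1 lower, whereas Elf3 and Elf5 were called higher in the former. Of 6 microfold cell genes (such as Gp2 and Ccl20), 6 were called higher in Tspan8pos than in Tspan8neg cells at MHCIIlo and 5 at MHCIIhi. This list includes Spib, itself an Ets family gene, which was the gene not called at MHCIIhi. The sum of all 6 was 569 to 845 CPM in the Tspan8neg libraries, 1857 to 2026 in Tspan8posMHCIIhi and 2807 to 3095 in Tspan8posMHCIIlo. The sum without Spib was 271 to 435 CPM in the Tspan8neg libraries. No gene of these 3 lists was at 0 in any library. The part of these cell types in the levels of the ESE factors was not tested.

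Promoter sequence is shown for the members with a called Tspan8 difference that have a RefSeq promoter (GRCm38.p6), as the window from 250 bases before to 50 after the start. Capitals mark the ETS core, GGAA or TTCC on the printed strand. The windows are at chr1:135258423-135258722 (minus strand) for Elf3, chr2:103411848-103412147 and chr2:103423818-103424117 (plus strand) for starts A and B of Elf5, chr16:95702157-95702456 (plus strand) for Ets2 and chr3:87525328-87525627 (plus strand) for Etv3.
Elf3: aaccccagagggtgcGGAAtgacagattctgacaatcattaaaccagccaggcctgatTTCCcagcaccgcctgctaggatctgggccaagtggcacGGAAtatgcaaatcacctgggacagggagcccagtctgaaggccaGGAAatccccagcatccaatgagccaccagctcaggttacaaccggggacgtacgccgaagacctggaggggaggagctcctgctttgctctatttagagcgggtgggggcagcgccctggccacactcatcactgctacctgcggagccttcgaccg
Elf5 start A: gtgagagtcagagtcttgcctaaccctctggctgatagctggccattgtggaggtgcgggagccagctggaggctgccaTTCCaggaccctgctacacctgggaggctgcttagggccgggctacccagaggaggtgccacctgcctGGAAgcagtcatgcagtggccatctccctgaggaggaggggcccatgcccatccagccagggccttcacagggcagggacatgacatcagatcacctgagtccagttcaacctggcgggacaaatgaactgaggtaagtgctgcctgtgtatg
Elf5 start B: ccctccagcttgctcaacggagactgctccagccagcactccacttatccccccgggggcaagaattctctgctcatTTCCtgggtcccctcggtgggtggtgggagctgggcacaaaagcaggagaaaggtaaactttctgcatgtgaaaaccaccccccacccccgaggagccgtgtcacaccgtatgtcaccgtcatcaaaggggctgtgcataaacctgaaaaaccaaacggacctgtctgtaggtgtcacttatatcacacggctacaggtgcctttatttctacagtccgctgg
Ets2: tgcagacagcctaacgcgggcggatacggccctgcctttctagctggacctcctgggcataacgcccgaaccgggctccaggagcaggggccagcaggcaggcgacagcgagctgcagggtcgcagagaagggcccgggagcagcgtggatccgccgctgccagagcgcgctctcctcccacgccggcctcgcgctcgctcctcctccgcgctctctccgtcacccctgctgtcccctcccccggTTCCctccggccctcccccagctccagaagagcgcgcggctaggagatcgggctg
Etv3: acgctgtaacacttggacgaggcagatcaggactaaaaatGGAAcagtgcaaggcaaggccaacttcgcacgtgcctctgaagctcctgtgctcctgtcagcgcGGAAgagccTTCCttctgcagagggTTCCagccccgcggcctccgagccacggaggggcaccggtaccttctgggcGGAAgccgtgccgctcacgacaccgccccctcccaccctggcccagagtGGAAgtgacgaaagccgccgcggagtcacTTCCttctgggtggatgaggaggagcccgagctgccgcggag

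The core occurred 4 times in the Elf3 window, 2 and 1 times in those of Elf5, 1 time in that of Ets2 and 7 times in that of Etv3. It stood at least 1 time in all 11 promoter windows found for 8 of the 10 members, and in 96% of the 32851 promoters of this length, so its presence does not set the members apart. The longer consensus CCGGAAGT, or its reverse complement ACTTCCGG, which contains the core, was in 0 of the 11 windows and in 3.89% of all promoters. CpG content varied among these windows. The Elf3 window held 12 CpG dinucleotides and those of Elf5 held 3 and 10, whereas Ets2 and Etv3 held 30 and 23, beside a median of 7 over all promoters. Ehf and Ets1 are not among these sequences.

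**Figure D2:**
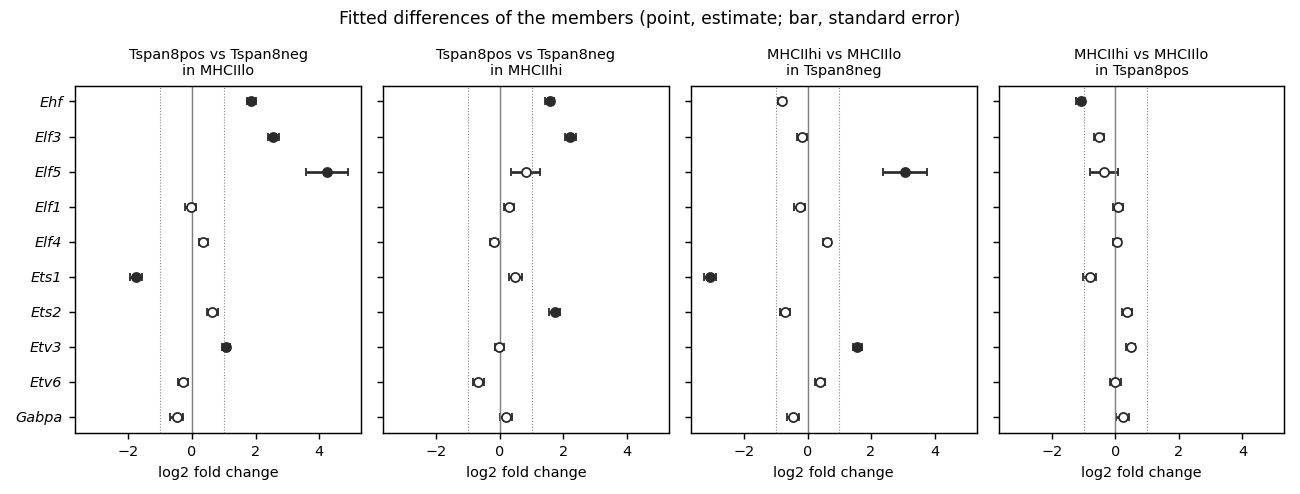
Fitted log2 fold changes of the 10 members in the 4 comparisons of subsets that share a Tspan8 or MHCII level. Points are estimates, bars are standard errors, filled points are called, and dotted lines mark the fold limit of 1 on the log2 scale in either direction. Ehf and Elf3 lie to the right in both Tspan8 comparisons, Ets1 lies to the left in Tspan8pos against Tspan8neg of MHCIIlo cells and in MHCIIhi against MHCIIlo of Tspan8neg cells, and in Tspan8pos cells the MHCII comparison has 1 filled point, Ehf.

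Ets1, a founding member of the family and an activator in lymphocytes, was highest in Tspan8negMHCIIlo. It lies on chromosome 9 (chr9:32636221-32757820, plus strand). Its level was 177 and 256 CPM in Tspan8negMHCIIlo and 22.9 and 28.3 in Tspan8negMHCIIhi, 35.1 and 37.6 in Tspan8posMHCIIhi and 63.2 and 63.9 in Tspan8posMHCIIlo. Both Tspan8negMHCIIlo libraries were above the other 6, and no 2 subsets overlapped. Against Tspan8negMHCIIlo, Ets1 was lower by a log2 fold change of −3.07 ± 0.20 in Tspan8negMHCIIhi (adjusted p = 1.62e-06) and of −1.77 ± 0.19 in Tspan8posMHCIIlo (adjusted p = 2.98e-05). The Tspan8 difference in MHCIIhi cells was 0.49 ± 0.20 (adjusted p = 0.0745) and the MHCII difference in Tspan8pos cells −0.81 ± 0.20 (adjusted p = 0.0166), neither of them called. The Tspan8 effect in MHCIIlo cells differed from that in MHCIIhi cells by −2.26 ± 0.28 (interaction, adjusted p = 0.000767). Over all genes, 4.60% were called for this interaction in either direction. Gm27240 overlaps Ets1 on the opposite strand.

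Markers of other cells were high in the same subset as Ets1. Of the 10 thymocyte genes, 8 were called lower in Tspan8negMHCIIhi and 5 in Tspan8posMHCIIlo relative to Tspan8negMHCIIlo. The thymocyte sum was 517 and 1446 CPM in Tspan8negMHCIIlo, 76.3 and 164 in Tspan8negMHCIIhi, 79.5 and 125 in Tspan8posMHCIIhi and 137 and 241 in Tspan8posMHCIIlo. Between the replicates of Tspan8negMHCIIlo this sum differed 2.79-fold and Ets1 1.45-fold, both higher in replicate 2, whereas the sum of 5 immature mTEC genes (such as Ccl21a and Pdpn) was 5039 CPM in replicate 1 and 3426 in replicate 2. Of those 5, 4 were called lower and 1 higher in Tspan8negMHCIIhi than in Tspan8negMHCIIlo. Most of this sum was Ccl21a, at a mean of 3554 CPM in Tspan8negMHCIIlo. Ccl21a, Pdpn and Itgb4 had their highest means in Tspan8negMHCIIlo. Krt15 had its lowest there (8.06 CPM), and Ackr4 its highest in Tspan8posMHCIIlo (47.5 CPM, beside 23.6 in Tspan8negMHCIIlo). The B cell sum (7 genes, 2 of them called lower in Tspan8negMHCIIhi) was 551 and 944 CPM in Tspan8negMHCIIlo and at most 163 elsewhere, with no gene at 0. The endothelial sum (5 genes, 3 of them called lower in Tspan8negMHCIIhi) was 108 to 128 CPM in Tspan8negMHCIIlo, 88.7 to 110.5 in Tspan8posMHCIIlo and at most 29.1 in the MHCIIhi libraries, where the endothelial gene Emcn was at 0 in 3 of 4. Without replicate 2 of Tspan8negMHCIIlo the log2 fold changes of Ets1 were −2.78 for MHCII in Tspan8neg cells (adjusted p = 3.36e-08) and −1.47 for Tspan8 in MHCIIlo cells (adjusted p = 5.31e-06), and the interaction was −1.97 (adjusted p = 4.49e-05). All 3 were also called without any other single library, the values reaching −3.31, −2.02 and −2.53. Depletion with anti-CD45 beads and the sort on CD45neg Epcampos cells are meant to remove thymocytes, B cells and endothelium. The part of thymocytes, B cells, endothelium and immature mTECs in the Ets1 level was not tested.

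**Figure D3:**
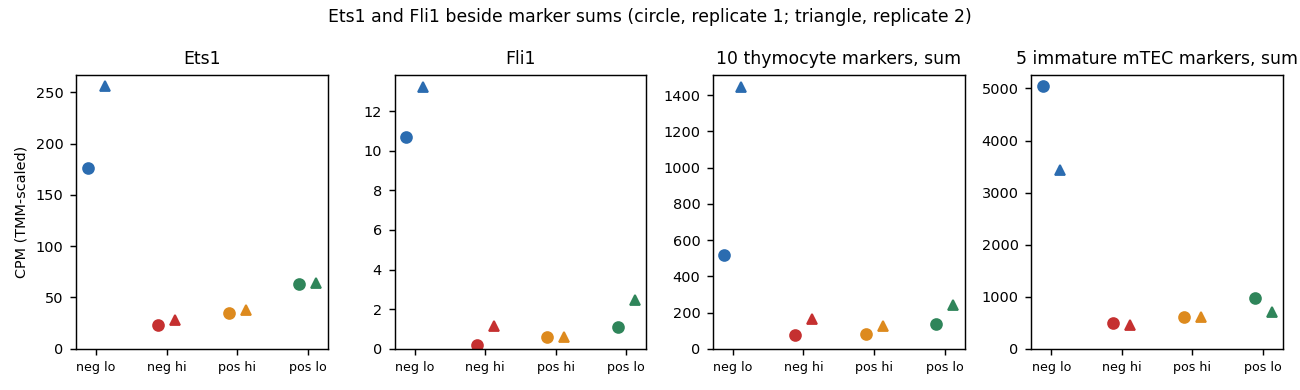
Levels of Ets1, of its chromosomal neighbour Fli1, of 10 thymocyte genes (sum) and of 5 immature mTEC genes (sum), in CPM on linear axes from 0, in the subsets Tspan8negMHCIIlo (neg lo), Tspan8negMHCIIhi (neg hi), Tspan8posMHCIIhi (pos hi) and Tspan8posMHCIIlo (pos lo). Circles are replicate 1 and triangles replicate 2. All 4 quantities are highest in Tspan8negMHCIIlo. Its replicate 2 is the higher one for Ets1, Fli1 and the thymocyte sum and the lower one for the immature mTEC sum. The immature mTEC sum in this subset is mostly Ccl21a.

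Ets2, a paralog of Ets1 that is activated downstream of Ras and MAP kinase signalling, followed Tspan8 in the MHCIIhi cells. It lies on chromosome 16 (chr16:95702075-95721051, plus strand). It was at 339.6 and 269 CPM in Tspan8negMHCIIlo, 195 and 178 in Tspan8negMHCIIhi, 684 and 549 in Tspan8posMHCIIhi and 517 and 435 in Tspan8posMHCIIlo. The 4 Tspan8pos libraries lay above the 4 Tspan8neg libraries. In MHCIIhi cells the log2 fold change was 1.73 ± 0.17 (adjusted p = 1.56e-05). In MHCIIlo cells it was 0.64 ± 0.16, with an adjusted p of 0.00911 and a fold under the limit. The interaction had an adjusted p of 0.0127 (−1.08 ± 0.23) and was not called. It was called with the Wald test of DESeq2 (−1.02, adjusted p = 0.00102), with no filter on low counts (−1.02, adjusted p = 0.00439), with the replicate number as a block (−1.07, adjusted p = 0.000987) and without replicate 2 of Tspan8negMHCIIlo (−1.26, adjusted p = 0.00102), but not without any other single library. The MHCII difference was −0.71 ± 0.16 in Tspan8neg cells (adjusted p = 0.00541) and 0.38 ± 0.16 in Tspan8pos cells (adjusted p = 0.149), and neither was called. Without replicate 2 of Tspan8negMHCIIlo the values against that subset were 0.48 for Tspan8 (adjusted p = 0.0372) and −0.88 for MHCII (adjusted p = 0.000654), also under the fold limit.

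Etv3, a repressor of the ERF subfamily that restrains proliferation in macrophages, was lowest in Tspan8negMHCIIlo. The gene lies on chromosome 3 (chr3:87525407-87540156, plus strand). Its level was 136 and 138 CPM in Tspan8negMHCIIlo, 437 and 373 in Tspan8negMHCIIhi, 432 and 373 in Tspan8posMHCIIhi and 299 and 278 in Tspan8posMHCIIlo. The MHCIIhi subsets overlapped each other and lay above both MHCIIlo subsets. In Tspan8neg cells Etv3 was higher in MHCIIhi by a log2 fold change of 1.56 ± 0.14 (adjusted p = 1.12e-05), and in Tspan8pos cells the value was 0.48 ± 0.14 (adjusted p = 0.0337, not called). For Tspan8 it was 1.07 ± 0.14 in MHCIIlo cells (adjusted p = 0.000125) and −0.01 ± 0.13 in MHCIIhi cells (adjusted p = 0.969). The interaction was 1.08 ± 0.19 (adjusted p = 0.00561). It was called with all libraries and lost its call in 6 of 8 fits without 1 library, those without any of the libraries of the other 3 subsets, with values from 0.97 to 1.26. Of 8 myeloid and dendritic cell genes tested, 4 were called higher in Tspan8negMHCIIhi than in Tspan8negMHCIIlo. Their sum over 9 genes was 64.3 and 130.4 CPM in Tspan8negMHCIIlo, 395 to 494 in the MHCIIhi libraries and 219.9 and 221 in Tspan8posMHCIIlo, where Itgax, Adgre1 and Siglech were at 0 in replicate 1. Its part in the Etv3 level was not tested.

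The remaining 4 members were called in no comparison. Across the subset means Elf1 spanned 0.29, Gabpa 0.53, Elf4 0.60 and Etv6 0.67 on the log2 scale, beside 2.73 for Elf3 and 3.08 for Ets1. Elf1, an activator in many blood and epithelial cells (chr14:79481194-79582494, plus strand), was at 126 and 106 CPM in Tspan8negMHCIIlo, 103 and 92.4 in Tspan8negMHCIIhi, 138 and 102 in Tspan8posMHCIIhi and 119 and 108 in Tspan8posMHCIIlo. Gabpa, the DNA-binding subunit of a factor for genes of mitochondrial and basic metabolism (chr16:84834925-84863779, plus strand), was at 41.9 and 41.7 CPM, 26.8 and 33.5, 38.2 and 31.9, and 24.7 and 33.2 in the same order of subsets. The libraries of both genes overlapped between the Tspan8pos subsets, and both libraries of Tspan8negMHCIIlo were above the other 6 for Gabpa.

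Elf4, a relative of Elf1 that restrains T cell proliferation (chrX:48411046-48463132, minus strand), was at 109 and 101 CPM in Tspan8negMHCIIlo, 163 and 157 in Tspan8negMHCIIhi, 151 and 131 in Tspan8posMHCIIhi and 135 and 135 in Tspan8posMHCIIlo. Its subset Tspan8negMHCIIlo lay below the other 6 libraries. Against that subset Tspan8negMHCIIhi was at 0.60 ± 0.13 (adjusted p = 0.00363), under the fold limit. Etv6, a repressor needed for blood stem cells (chr6:134035700-134270158, plus strand), was at 221 and 163 CPM, 267 and 239, 160.1 and 157, and 171 and 147 in that order of subsets. Its highest libraries were those of Tspan8negMHCIIhi, and the Tspan8 difference in MHCIIhi cells was −0.67 ± 0.16 (adjusted p = 0.00722), also under the fold limit. Wbp4 and Gm27857 overlap Elf1, Atp5j overlaps Gabpa and several genes overlap Etv6 on the opposite strand, with Gm43982 and Gm43984 on that of Etv6.

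Subsets that differ in both markers were compared as well. Between Tspan8posMHCIIlo and Tspan8negMHCIIhi, 4 members were called, Ehf (2.66 ± 0.14), Elf3 (2.73 ± 0.17), Ets1 (1.30 ± 0.20) and Ets2 (1.35 ± 0.17), all higher in the first, against 29.3% of all genes in either direction. Between Tspan8posMHCIIhi and Tspan8negMHCIIlo, 4 members were higher in the first, Elf3 (2.05 ± 0.17), Elf5 (3.89 ± 0.67), Etv3 (1.56 ± 0.14) and Ets2 (1.02 ± 0.16), and Ets1 was lower (−2.57 ± 0.19), against 24.7% of all genes. The Ets2 call in the latter was lost without replicate 2 of Tspan8negMHCIIlo (0.86) and without replicate 1 of Tspan8posMHCIIhi (0.87). Ehf was at 0.77 ± 0.14 in that comparison (adjusted p = 0.000828), under the fold limit.

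The table held 17 other genes of the Ets family, of which 14 were tested. Etv2, Fev and the pseudogene Etv3l had too few counts. Across Tspan8 in MHCIIlo cells 2 of these 14 were called higher (Spib and Spdef) and 4 lower (Erf, Fli1, Etv5 and Elk3), beside the 12.1% and 9.34% of all genes given above. In MHCIIhi cells 2 were higher (Etv1 and Spdef) and 0 lower, beside 11.0% and 7.45%. Between the MHCII levels of Tspan8neg cells 1 was higher in MHCIIhi (Spic) and 2 were lower (Erf and Fli1), beside 13.1% and 9.67%, and in Tspan8pos cells 0 were called, where 4.59% and 2.62% of all genes were. Their median log2 fold change for Tspan8 was −0.58 in MHCIIlo and −0.26 in MHCIIhi cells, beside −0.03 and −0.03 for all genes tested.

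Spib, a factor of B cells, plasmacytoid dendritic cells and microfold cells, was the most abundant of these. It was at 290.4 and 396 CPM in Tspan8negMHCIIlo, 486 and 506 in Tspan8negMHCIIhi, 387 and 445 in Tspan8posMHCIIhi and 883 and 769 in Tspan8posMHCIIlo. For Tspan8 it was at 1.26 ± 0.16 in MHCIIlo cells (adjusted p = 0.000111) and −0.25 ± 0.16 in MHCIIhi cells (adjusted p = 0.237). The interaction was 1.52 ± 0.23 (adjusted p = 0.00218) and lost its call in 4 of 8 fits without 1 library, namely without replicate 2 of Tspan8negMHCIIhi, replicate 1 of Tspan8posMHCIIhi or either library of Tspan8posMHCIIlo. The B cell sum was 71.5 and 163 CPM in Tspan8posMHCIIlo, where Spib was highest. Of the 7 B cell genes, 1 was called higher there than in Tspan8negMHCIIlo and 3 lower. Cd79b had its highest mean in Tspan8posMHCIIlo (36.0 CPM, beside 12.5 to 13.8 in the other subsets). The microfold list without Spib (5 genes) summed to 2038 to 2212 CPM in Tspan8posMHCIIlo, 1470.1 to 1580.4 in Tspan8posMHCIIhi and 271 to 435 in the Tspan8neg libraries. The part of B cells, plasmacytoid dendritic cells, microfold cells and other mTECs in the Spib level was not tested.

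Spdef, a factor of mucus-secreting goblet cells, was at 0.28 and 3.77 CPM in Tspan8negMHCIIlo, 3.33 and 4.87 in Tspan8negMHCIIhi, 13.7 and 22.8 in Tspan8posMHCIIhi and 33.5 and 35.8 in Tspan8posMHCIIlo. Like Ehf and Elf3, it was higher in every Tspan8pos library than in every Tspan8neg library, with log2 fold changes of 4.0 ± 0.55 (MHCIIlo, adjusted p = 0.000180) and 2.11 ± 0.47 (MHCIIhi, adjusted p = 0.00481). The former rests on 1 and 16 counts in the lower subset, and the latter lost its call in 5 of 8 fits without 1 library, those without replicate 2 of Tspan8posMHCIIhi or any library of Tspan8negMHCIIhi or Tspan8posMHCIIlo. Etv1 was at 1.54 ± 0.39 in MHCIIhi cells with an adjusted p of 0.00981, at the edge of the limit, and kept its call only in the 2 of 8 fits without a Tspan8negMHCIIlo library. In MHCIIlo cells it was at 1.51 ± 0.40 (adjusted p = 0.0107).

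Erf, the repressor closest to Etv3, was highest where Etv3 was lowest. It was at 145 and 96.7 CPM in Tspan8negMHCIIlo and at most 51.7 in the other 6 libraries. Erf was called lower in Tspan8posMHCIIlo (−1.31 ± 0.23, adjusted p = 0.00107) and in Tspan8negMHCIIhi (−1.73 ± 0.23, adjusted p = 0.000156) than in Tspan8negMHCIIlo. The former call was lost without replicate 2 of Tspan8posMHCIIlo (−1.22, adjusted p = 0.0264). The calls of Etv5 (−1.84 ± 0.45, adjusted p = 0.00676) and Elk3 (−1.0 ± 0.23, adjusted p = 0.00505) for Tspan8 in MHCIIlo cells were weakly held. That of Etv5 was lost in 5 of 8 fits without 1 library, those without replicate 2 of Tspan8negMHCIIlo or any Tspan8pos library. That of Elk3 was lost in 2, without replicate 1 of Tspan8negMHCIIlo or of Tspan8posMHCIIlo.

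Spic, a factor of macrophages, was at 1.12 and 1.65 CPM in Tspan8negMHCIIlo, 11.6 and 11.7 in Tspan8negMHCIIhi, 10.2 and 9.14 in Tspan8posMHCIIhi and 2.20 and 4.91 in Tspan8posMHCIIlo. The 4 MHCIIhi libraries thus lay above the 4 MHCIIlo libraries, as did the myeloid marker sum given beside Etv3. In Tspan8neg cells Spic was higher in MHCIIhi by a log2 fold change of 3.03 ± 0.45 (adjusted p = 0.000299). Whether myeloid cells account for any of the Spic level was not tested.

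**Figure D4:**
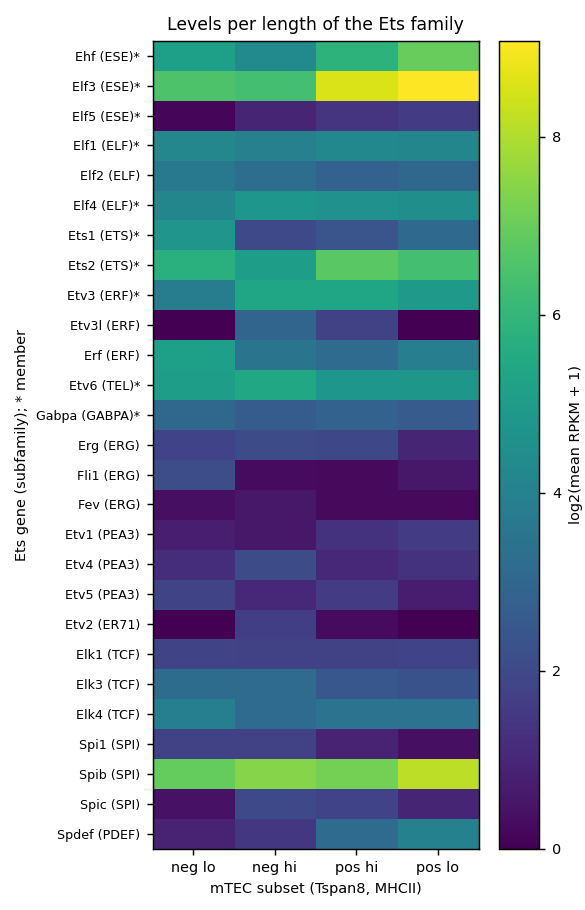
Mean levels per length of the 27 Ets family genes in the table, as log2(RPKM + 1) by colour, in the subsets Tspan8negMHCIIlo (neg lo), Tspan8negMHCIIhi (neg hi), Tspan8posMHCIIhi (pos hi) and Tspan8posMHCIIlo (pos lo). Rows are genes with their subfamily, and an asterisk marks the 10 members. Elf3 and Spib are the brightest rows, with Elf3 at 539 RPKM and Spib at 288 RPKM in Tspan8posMHCIIlo.

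On the RPKM scale, Spib had the highest level of the 27 family genes in both Tspan8neg subsets, at 119.7 ± 26.1 in MHCIIlo and 173 ± 4.92 in MHCIIhi. Elf3 had the highest level in both Tspan8pos subsets, at 379.6 ± 42.6 in MHCIIhi and 539 ± 62.9 in MHCIIlo. Elf3 made up 18.5% and 16.3% of the summed family RPKM in Tspan8negMHCIIlo and Tspan8negMHCIIhi, and 44.1% and 44.9% in Tspan8posMHCIIhi and Tspan8posMHCIIlo. The ESE factors together held 25.3%, 20.4%, 51.0% and 55.4% in that order. With the mean transcript length in place of merged exons, Spib and Elf3 were still the highest in the same subsets, while the share of Elf3 in Tspan8posMHCIIlo came to 32.4%.

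In addition to Ehf and Elf5, other members have a family neighbour on the chromosome. Ets1 and Fli1, 93359 bases apart on opposite strands, were both highest in Tspan8negMHCIIlo. Fli1, a factor of blood and endothelial cells, was at 10.7 and 13.2 CPM there and at most 2.46 in the other libraries. It was called lower in Tspan8negMHCIIhi (−3.94 ± 0.62, adjusted p = 0.000461, and −3.79, adjusted p = 0.00152, without replicate 2 of Tspan8negMHCIIlo) and in Tspan8posMHCIIlo (−2.54 ± 0.58, adjusted p = 0.00485). The latter call was lost in 3 of 8 fits without 1 library, among them that without replicate 2 of Tspan8negMHCIIlo (−2.38, adjusted p = 0.0224) and those without either library of Tspan8posMHCIIlo, and the marker sums given beside Ets1 apply to Fli1 too. Ets2 and Erg, 115481 bases apart, did not share an order. Erg was at 2.20 to 12.8 CPM in all libraries, with its lowest values, 2.20 and 4.10, in Tspan8posMHCIIlo, a subset in which Ets2 was high.

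Partners of Ets factors were read from the same fit. Gabpb1, a partner of Gabpa, was at 80.3 and 69.0 CPM in Tspan8negMHCIIhi and between 34.7 and 45.5 in the other subsets. It was called lower in Tspan8posMHCIIhi than in Tspan8negMHCIIhi (−1.08 ± 0.15, adjusted p = 0.000197), whereas Gabpa was at 0.21 ± 0.19 (adjusted p = 0.42). Srf, the partner of Elk factors at serum response elements, was called in the comparison of Tspan8posMHCIIlo with Tspan8negMHCIIhi (1.24 ± 0.14, adjusted p = 2.53e-05).

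For each member with a call, the genes with the most similar profile were found by the root mean square difference of log2 CPM, each gene centred on its own mean over the 8 libraries. The search covered 4758 or 4759 named genes that averaged 10 CPM or more and overlap no annotated gene. Nearest to Ehf were Skap2 (0.23), Cpne3 (0.24) and Bpgm (0.25), and nearest to Elf3 were Fam43a (0.14), Hcar2 (0.22) and Rassf7 (0.24). For Ets2 they were Mr1 (0.11), Abhd17c (0.17) and Btg1 (0.17), and for Etv3 they were Alg6 (0.13), Megf9 (0.14) and Map3k8 (0.14). Ets1 was nearest to Six5 (0.26), Ccn1 (0.27) and Gimap6 (0.31). Elf5, with few reads, had the most distant neighbours, Srms (0.44), Dlx3 (0.47) and Gucy2c (0.47). Among the members themselves the closest pair was Elf1 and Gabpa (0.27), and Ehf and Elf3 were 0.50 apart. The profiles were not scaled to the size of their changes, so genes that vary little lie close whatever their order of subsets. Elf1 and Gabpa spanned only 0.29 and 0.53 on the log2 scale, so their distance is not a measure of shared regulation.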

How the data were processed

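RNA-seq of 8 libraries of sorted mouse mTECs was analysed, 2 for each of 4 subsets, grouped by the Tspan8 and MHCII labels. Estimated counts per gene, deposited by the authors in 1 table, were whole numbers and had not been normalized. Per the submitters' notes the reads were quantified with Salmon 1.8.0 and tested with DESeq2 1.30.0 (mm10). The study's methods describe tagmentation of pre-amplified cDNA and the labels name a stranded kit, so overlapping genes are reported as uncertain. Among the other family genes and partners with a call, Fli1, Elk3, Gabpb1 and Srf also overlap an annotated gene. Their levels carry the same doubt. Of 25466 identifiers, 25336 matched a symbol in the GENCODE annotation of GRCm38, a later release than the one the study used.

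Counts were fitted in R 4.3.3 with edgeR 4.0.16 (TMM, filterByExpr by subset, quasi-likelihood test, 17006 genes, biological coefficient of variation 15.5%) as a mean per subset. Two-sided p-values were adjusted by Benjamini-Hochberg, and a standard error is the size of the log2 fold change over the square root of its F. An exact permutation test of 2 against 2 libraries cannot reach 0.05, and none is given. RPKM used merged exon lengths. A floor of 3 counts, 0.385 to 1.65 CPM, covers counting error only, as reads copied by PCR are not separate molecules. Library totals differ 4.01-fold. The scripts were tested on simulated data.

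Alternatives were DESeq2 1.42.0, its size factors, other filters, the 4 libraries of a comparison alone, the replicate number as a block, thinning to 1941518 counts, other limits and leaving out each library. The members, gene lists and tests were chosen with earlier results of these data known. The text gives the 10 members, called genes of the rest of the family, partners, neighbours and the 3 nearest profiles of each called member. Promoter windows are from RefSeq. Labels do not say whether replicates came from separate mice beyond calling them biological, so p-values measure the spread between these libraries.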

Additional observations from a re-analysis of the deposited data

Results flagged for a closer look

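The effect of Tspan8 differed between MHCIIlo and MHCIIhi cells by a test of the interaction at 3 of 24 family genes tested. In MHCIIhi cells alone, the Tspan8 difference was called for none of these 3. Among all genes tested, 4.60% were called for the interaction in either direction. For Ets1 the difference between the log2 fold changes was −2.26 (adjusted p = 0.000767, edgeR quasi-likelihood test), with Tspan8pos lower in both replicates of MHCIIlo and higher in both of MHCIIhi cells. For Etv3 it was 1.08 (adjusted p = 0.00561), with Tspan8pos higher in both replicates of MHCIIlo and overlapping with Tspan8neg in MHCIIhi cells. For Spib it was 1.52 (adjusted p = 0.00218), with Tspan8pos higher in both replicates of MHCIIlo and lower in both of MHCIIhi cells. The call held in all 8 fits without 1 library for Ets1, in 2 for Etv3 and in 4 for Spib. Thymocyte markers, which differed between the replicates of Tspan8negMHCIIlo, were high in the subset in which Ets1 was highest, and their part in its interaction was not tested.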

How the results depend on the processing

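Differences near 0 that were never called changed sign. With every library thinned to the smallest total, the log2 fold change became 0.0694 for Elf1 and 0.0075 for Etv3 (Tspan8 in MHCIIlo and MHCIIhi cells), −0.00182 for Elf4 and −0.0303 for Etv6 (MHCII in Tspan8pos cells), and 0.0663 and 0.0201 for Gabpa (Tspan8posMHCIIlo against Tspan8negMHCIIhi, and Tspan8posMHCIIhi against Tspan8negMHCIIlo). Leaving out 1 library at a time gave ranges that crossed 0. For Tspan8 these were −0.16 to 0.0786 for Elf1 in MHCIIlo cells, and −0.19 to 0.10 for Etv3 and −0.0106 to 0.35 for Gabpa in MHCIIhi cells. For MHCII they were −0.37 to 0.0517 for Elf3 in Tspan8neg cells, and in Tspan8pos cells −0.13 to 0.29 for Elf1, −0.0213 to 0.16 for Elf4, −0.57 to 0.0646 for Elf5 and −0.11 to 0.14 for Etv6. Across both markers they were −0.28 to 0.13 for Gabpa (Tspan8posMHCIIlo against Tspan8negMHCIIhi) and −0.17 to 0.26 for Elf1 (Tspan8posMHCIIhi against Tspan8negMHCIIlo). The interaction of Elf5 (3.43, adjusted p = 0.0226) was called with no filter (adjusted p = 0.00593) and without replicate 2 of Tspan8negMHCIIlo (adjusted p = 0.00162), and Elf5 was called higher in Tspan8posMHCIIlo than in Tspan8negMHCIIhi (1.19, adjusted p = 0.05) with those 4 libraries alone (1.12, adjusted p = 0.00782) and without either library of Tspan8negMHCIIlo. With no limit on the fold change, 6 members were called for MHCII in Tspan8neg cells in place of 3. The added members were Ehf, Elf4 and Ets2, whose folds lay under the limit. The share of all genes called under that rule is not given, so the rise is not a result about the members. With an adjusted p under 0.05, the genes called for MHCII in Tspan8pos cells rose from 1226 to 1858. For the interaction 2 members and 783 genes were called. These became 4 and 1267 with no filter, and 4 and 1754 with an adjusted p under 0.05. Without 1 library they ranged from 1 to 4 members and from 189 to 1385 genes. The genes called ranged from 2273 to 3740 for Tspan8 in MHCIIlo cells (3640 with all libraries), 2045 to 3637 in MHCIIhi cells (3143), 2360 to 3759 for MHCII in Tspan8neg cells (3866) and 427 to 1671 in Tspan8pos cells, where the members called ranged from 0 to 1. The cause was not tested.

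Same-numbered libraries deviated together only weakly (correlations of 0.00 to 0.09). The main fit used no pairing, but correlations this small cannot show that the libraries were unpaired. With the replicate number as a block, the interaction called 1236 genes and 3 members in place of 2, Ets2 being added (−1.07, adjusted p = 0.000987), and no other count of members called moved. Low counts limit Elf5, Spdef and Fli1, each of which had a library with 0 to 1 counts.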
